A study of Mus musculus with 1073 samples.

Results

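*Gata1*, *Gata2*, *Gata3*, *Gata4*, *Gata6* and *Zfpm1* were followed through 13 cell populations sorted from the mouse yolk sac from E7.25 on, the last of them at E10.5. The 6 genes were chosen by name, and all of them were among the 15967 genes of the filtered table, which held 926 cells. Read counts per gene were made by the authors from single-cell libraries, and levels are given in the authors' CPM, which are counts scaled by a size factor for each cell. Detection in a cell means at least 1 count.

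*Flk1*-GFP+ cells, which express GFP from an allele of the *Flk1* (*Kdr*) receptor gene, came from *Flk1*-GFP/+ embryos at E7.25 (73 and 74 cells from the 2 lanes) and E7.75 (140 cells). All other cells came from C57BL/6 embryos, and by the paper the *Flk1*-GFP line was also kept on this background. Haematopoietic progenitor cells (HPC) were sorted as TER119-CDH5+CD41+ at E8.25 (73 cells) and E8.5 (89 cells), and as TER119-CDH5-CD45+CD41low at E9.5 (46 cells) and E10.5 (87 cells), so that the HPC gate changed between E8.5 and E9.5. Primitive erythroid cells (EryP) were TER119+ and negative for CD41 and CDH5 at E8.5 (66 cells), and also for CD45 at E10.5 (3 cells). Megakaryocytes (Mk) were TER119-CDH5-CD41+ at E8.5 (37 cells) and TER119-CDH5-CD45-CD41high at E10.5 (73 cells). E10.5 macrophages (Mac, 25 cells) were TER119-CDH5-CD41-CD45+, and endothelial cells (Endo) were TER119-CD41-CDH5+ at E8.5 (79 cells) and also CD45- at E10.5 (61 cells).

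GATA factors are zinc finger proteins that bind the DNA sequence for which they are named. GATA2 acts in mesoderm, endothelium and blood progenitors, and GATA1 is required for the maturation of red cells and megakaryocytes. In the exchange known as the GATA switch, GATA1 replaces GATA2 at shared sites while *Gata2* itself is turned down. *Zfpm1* encodes FOG1 (Friend of GATA), a cofactor that binds GATA1 and is required for erythroid and megakaryocyte development. GATA3 is best known from T cells and trophoblast, and GATA4 and GATA6 from endoderm and cardiac mesoderm.

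Each library was 1 cell and the labels name no embryo for a cell, so each population counts as a single sample. No test between populations was made and no p-value is given. Intervals of shares are exact (Clopper-Pearson) 95% intervals and cover counting error only. Total counts ranged from 483830 to 5943204 per cell, with medians from 1555237 in E8.5 HPC to 3536330 in E8.5 Mk. Of the 926 cells, 293 held transcripts of both sexes (5 counts or more of *Xist* and of 4 Y-linked genes together), among them 59 of the 79 E8.5 Endo cells. A flow cell carried E7.25, E8.25 and all E8.5 libraries, and a different flow cell carried the remaining stages, so that stage and sequencing run cannot be told apart between these sets. From E8.25 on, each population was read in a single lane.

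Markers of other lineages were present in some populations. The 4 primitive erythroid markers averaged 97.97% of E8.5 Mk cells, with a median summed level of 23186 CPM over the cell's own total, against 62709 in E8.5 EryP. The 5 megakaryocyte markers averaged 71.9% of E8.5 Mk cells (median summed level 171 on the same scale) and 98.9% at E10.5 (5095). The library set labelled E8.5 Mk was thus higher in erythroid than in megakaryocyte markers. E10.5 Mac cells carried the 4 macrophage markers in 98% of cells on average and the erythroid ones in 63.0%, at a median summed level of 20.8, and they were read in the same lane as the E10.5 EryP cells. Endothelial markers averaged 90.7% of E8.25 HPC, 89.7% of E8.5 HPC, 63.0% of E9.5 HPC and 51.7% of E10.5 HPC. The part of any of these in the results was not tested.

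*Gata1* (ENSMUSG00000031162) lies on the minus strand of chromosome X, from 7959260 to 7978071 in GRCm38. *Gata2* (ENSMUSG00000015053) lies on the plus strand of chromosome 6, from 88193891 to 88207032. *Zfpm1* (ENSMUSG00000049577) lies on the plus strand of chromosome 8, from 122282141 to 122337251. No exon of these 3 genes, or of *Gata4* (ENSMUSG00000021944, chromosome 14, 63198922 to 63271692, minus strand), overlapped an exon of another gene in GENCODE M21. *Gata3* (ENSMUSG00000015619, chromosome 2, 9857078 to 9890034, minus strand) shared 232 exonic bases with *9230102O04Rik* and the antisense *Gm13256*. Nextera XT libraries do not mark strand, so reads from these bases cannot be told apart.

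The 250 bases before a transcription start of *Gata1*, *Gata2* and *Zfpm1* are shown because the results turn on the balance of the first pair and on the cofactor of GATA1. They are from RefSeq (GRCm38.p6), read along the strand of the gene, with GATA, CACCC (the box bound by Krüppel-like factors such as KLF1) and their reverse complements TATC and GGGTG in capitals. The *Gata1* window is chrX:7967911-7968160 (minus strand), the *Gata2* window chr6:88193641-88193890 (plus strand) and the *Zfpm1* window chr8:122281891-122282140 (plus strand).
Gata1: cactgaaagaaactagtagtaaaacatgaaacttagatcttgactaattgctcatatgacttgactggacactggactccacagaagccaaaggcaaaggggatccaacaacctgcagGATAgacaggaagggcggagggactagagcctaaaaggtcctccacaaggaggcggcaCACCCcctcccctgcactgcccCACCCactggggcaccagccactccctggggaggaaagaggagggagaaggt
Gata2: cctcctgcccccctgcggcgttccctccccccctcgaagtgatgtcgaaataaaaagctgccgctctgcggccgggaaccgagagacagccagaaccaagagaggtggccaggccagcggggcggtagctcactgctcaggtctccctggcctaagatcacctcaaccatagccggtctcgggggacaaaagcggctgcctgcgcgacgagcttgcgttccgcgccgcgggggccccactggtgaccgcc
Zfpm1: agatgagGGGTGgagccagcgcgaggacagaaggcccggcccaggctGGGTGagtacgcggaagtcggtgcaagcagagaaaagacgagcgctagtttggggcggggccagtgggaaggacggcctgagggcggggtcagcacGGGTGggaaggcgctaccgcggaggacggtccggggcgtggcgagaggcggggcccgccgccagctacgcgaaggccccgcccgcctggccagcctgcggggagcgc

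The *Gata1* window held 1 GATA core and 2 CACCC boxes. The *Zfpm1* window held 3 CACCC boxes on the opposite strand, and the *Gata2* window shown held neither word. The window of a further *Gata2* start (chr6:88198414-88198663, not shown) held 1 CACCC box, on the opposite strand and 235 bases before that start. A GATA core was present in 53.6% and a CACCC box in 52.0% of all 32851 promoter windows of this length, counting both strands.

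*Gata1* was highest in EryP and Mk, intermediate in progenitors and mesoderm, and near 0 in endothelium and macrophages. It was detected in 30.6% of E7.25 *Flk1*-GFP+ cells (interval 23.3 to 38.7) and in 63.6% at E7.75 (55.0 to 71.5). Mean levels were 33.1 CPM (SD 83.0) and 132.01 CPM (SD 278). The added cells at E7.75 were partly cells with traces. *Gata1* was present at 1 to 9 counts in 26.4% of E7.75 cells, and at 10 counts or more in 37.1%, against 22.4% at E7.25.

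Among HPC, E8.25 cells held *Gata1* in 65.8% (53.7 to 76.5) and E8.5 cells in 77.5% (67.4 to 85.7). The share was 21.7% at E9.5 (10.9 to 36.4) and 63.2% a day later (52.2 to 73.3). The interval at E9.5 lay below those of the other 3 stages, which overlapped one another. The 4 macrophage markers averaged 4.11%, 12.4%, 46.2% and 48.9% of HPC over these stages in order, with median summed levels of 0, 0, 52.9 and 5.58 CPM over the cell's own total, and their part in the *Gata1* values was not tested. Mean levels at the 4 stages, in order, were 204, 199, 38.0 and 120.2 CPM. At E9.5 the level was held by few cells, since 10 of 46 cells had the gene and the 5 highest cells carried 91.8% of the summed CPM.

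All 66 E8.5 EryP cells held *Gata1*, at a median of 512 CPM, with a lowest cell of 18.8 CPM and a highest of 1240 CPM. The 3 E10.5 EryP cells had 678, 219.9 and 808 CPM, all within that range. *Gata1* was in all 37 E8.5 Mk cells, with a mean of 392 CPM (SD 226) and a median of 375 CPM. It was in 72 of 73 E10.5 Mk cells, with a mean of 457 CPM (SD 308) and a median of 401 CPM. The ranges of these EryP and Mk cells overlapped.

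Endothelial and macrophage cells gave the lowest values. In E8.5 Endo, 0 of 79 cells held *Gata1*, which allows a share of up to 3.80% taking 3 cells as the limit (the exact interval ends at 4.56%), and 1 of 61 E10.5 Endo cells held 2 counts. In E10.5 Mac, 2 of 25 cells held 1 count each, at a median total of 3422342 counts per cell. The mean over E8.5 HPC was at least 8967-fold that over E8.5 Endo, taking 3 counts over the Endo group as the floor. In the order of *Gata1* shares over the 13 populations, intervals of neighbours failed to overlap at 2 of 12 steps, from E10.5 Mk to E8.5 HPC and from E10.5 HPC to E7.25 mesoderm.

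**Figure D1:**
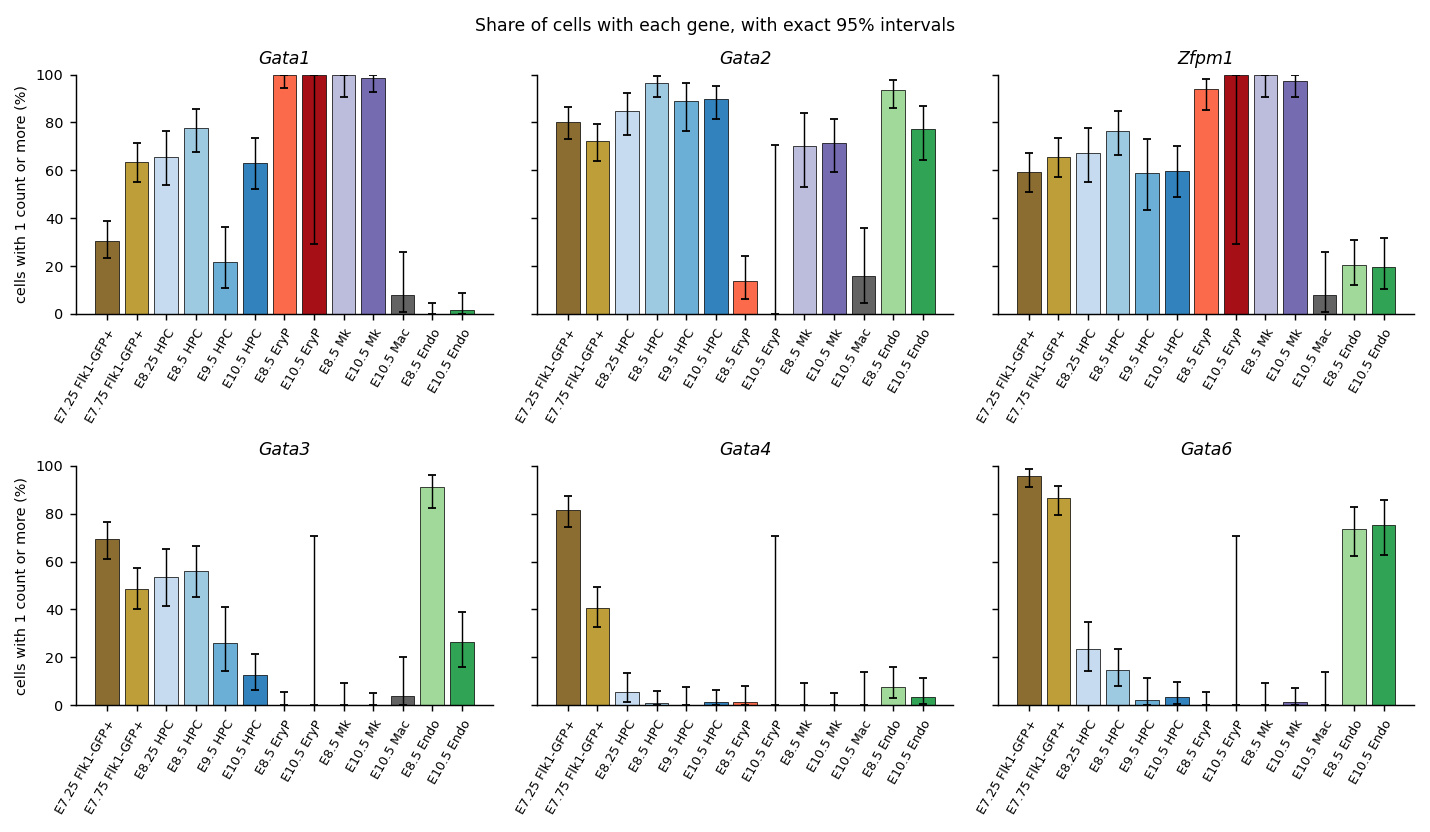
Share of cells with 1 count or more (y axis, %) for each gene in the 13 populations (x axis); bars are shares and whiskers exact 95% intervals. *Gata1* and *Zfpm1* stood highest in EryP and Mk, *Gata2* was below 20% only in EryP and Mac, and *Gata4* stood highest at E7.25, at 81.6%.

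*Gata2* was found in most cells of every population other than EryP and Mac. It was detected in 80.3% of E7.25 (72.9 to 86.4) and 72.1% of E7.75 *Flk1*-GFP+ cells (63.9 to 79.4). The HPC shares, from the earliest stage to the last, were 84.9%, 96.6%, 89.1% and 89.7%, and these 4 intervals overlapped. Endo cells held it in 93.7% at E8.5 (85.8 to 97.9) and 77.0% at E10.5 (64.5 to 86.8).

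Over mesoderm, HPC and Endo, mean levels of *Gata2* lay between 52.0 CPM (SD 47.9) in E8.5 HPC and 153.9 CPM (SD 219) in E10.5 HPC. Endo means were close, at 74.3 CPM at E8.5 (SD 73.4) and 62.7 CPM at E10.5 (SD 95.8). The Endo medians were further apart, at 58.7 CPM (34.6 to 72.0) and 9.60 CPM (1.19 to 33.0), with intervals that did not overlap. The highest E10.5 Endo cell, at 347 CPM, was near the highest at E8.5, at 362 CPM.

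*Gata2* was also present in most cells of both Mk gates. It was in 26 of 37 E8.5 Mk cells, 70.3% (53.0 to 84.1), and 52 of 73 E10.5 Mk cells, 71.2% (59.4 to 81.2). Means were 29.7 CPM (SD 57.9) and 44.6 CPM (SD 75.0), and medians 9.36 CPM and 7.86 CPM, so that the upper cells set the means. The HPC markers *Myb*, *Runx1* and *Kit* averaged 80.8% of E8.5 Mk cells with *Gata2* and 57.6% of the 11 cells without it. Transcripts of both sexes were in 14 of the 26 cells with *Gata2* and 2 of the 11 without, and their part in this was not tested. At E10.5 the HPC markers averaged 52.6% and 50.8%.

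In EryP, *Gata2* was at or near 0. At E8.5, 9 of 66 cells held it (13.6%, 6.43 to 24.3), with a highest cell of 25.2 CPM and a mean of 1.02 CPM. Transcripts of both sexes were in 4 of these 9 cells and in 26 of the other 57. No count was found in the 3 E10.5 EryP cells, which are too few to limit the share. In the order of *Gata2* shares, neighbours failed to overlap at 1 of 12 steps, from E8.5 Mk to E10.5 Mac.

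**Figure D2:**
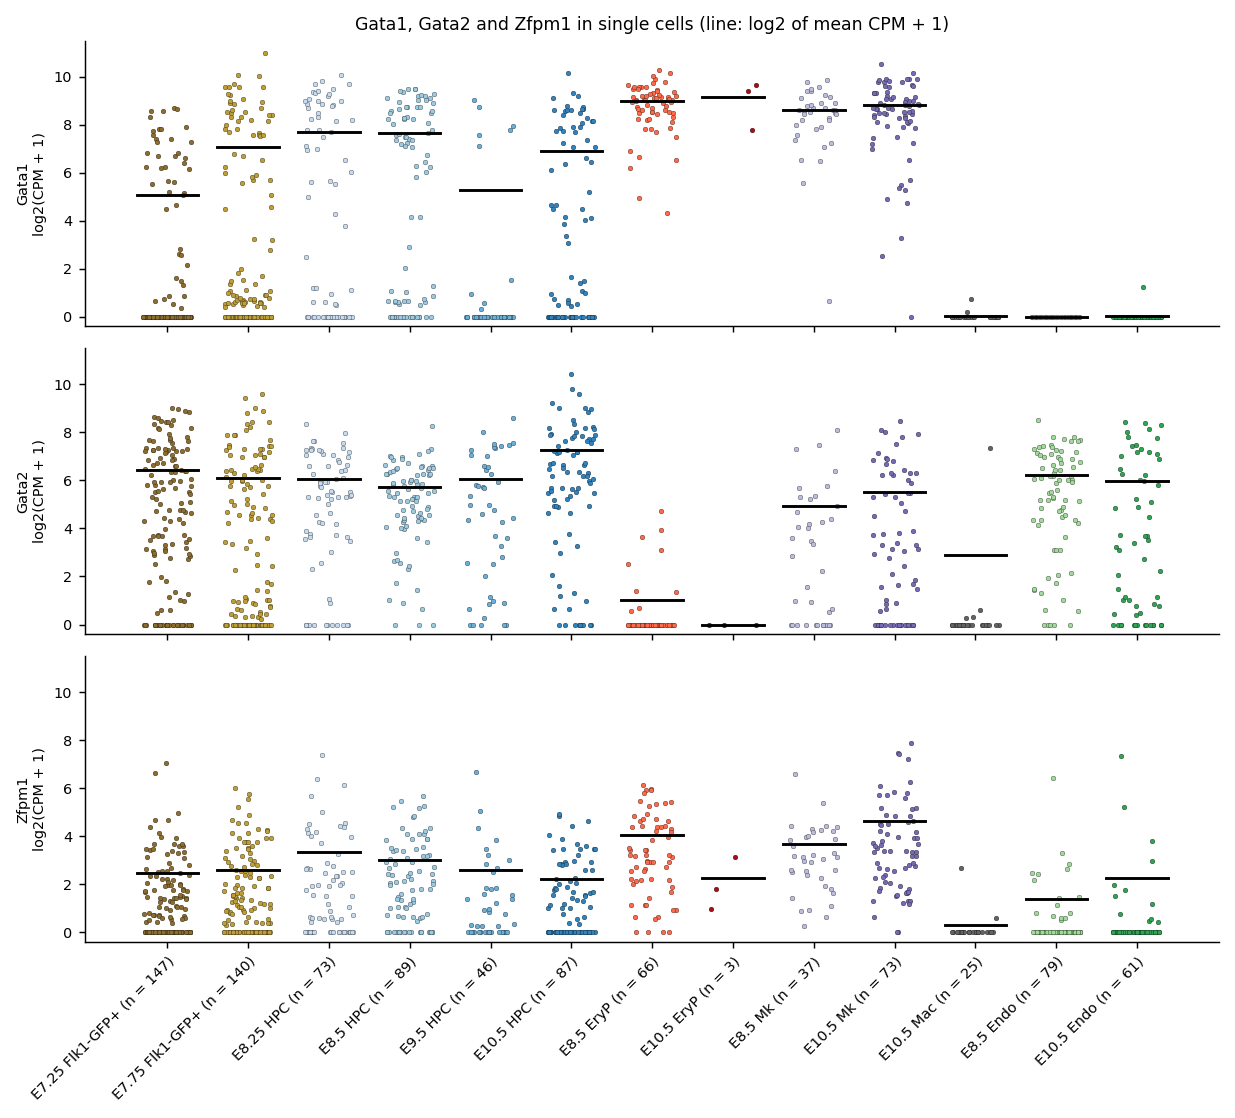
*Gata1*, *Gata2* and *Zfpm1* in each cell, as log2(CPM + 1) on the y axis, by population on the x axis; each point is a cell and the line is log2 of mean CPM + 1. All 66 E8.5 EryP cells held *Gata1*, 9 of them held *Gata2*, and no E8.5 Endo cell held *Gata1*.

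*Zfpm1*, the FOG1 gene, was most widely found where *Gata1* was. Its share was 100% of 37 E8.5 Mk cells, 97.3% at E10.5 (90.5 to 99.7) and 93.9% of E8.5 EryP (85.2 to 98.3), and all 3 E10.5 EryP cells held it, at 0.973, 7.80 and 2.49 CPM. In HPC the shares were 67.1%, 76.4%, 58.7% and 59.8% from E8.25 to E10.5, with overlapping intervals. *Flk1*-GFP+ cells held it in 59.2% at E7.25 and 65.7% at E7.75. At E7.25 the share was 68.5% in lane 6 (56.6 to 78.9) and 50.0% in lane 7 (38.1 to 61.9), and these intervals overlapped. Neighbours failed to overlap at 2 of 12 steps, from E8.5 EryP to E8.5 HPC and from E9.5 HPC to E8.5 Endo.

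Levels of *Zfpm1* were low. The highest mean was 24.1 CPM in E10.5 Mk (SD 42.5), where the highest cells held 236, 175 and 168 CPM and the median was 9.28 CPM. E8.5 EryP had a mean of 15.4 CPM and a median of 8.09 CPM, and E8.5 Mk a mean of 11.8 CPM and a median of 7.64 CPM. HPC means ran from 3.66 CPM at E10.5 to 9.18 CPM at E8.25. Endo cells held *Zfpm1* in 20.3% at E8.5 (12.0 to 30.8) and 19.7% at E10.5 (10.6 to 31.8), and Mac cells in 2 of 25. At such levels detection moved with depth. Thinned to 840000 counts per cell, the share was 47.6% at E7.25 and 10.53% in E10.5 Endo.

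*Gata3* was most widely found in E8.5 endothelium and was not detected in EryP or Mk. It was in 91.1% of E8.5 Endo cells (82.6 to 96.4) and 26.2% at E10.5 (15.8 to 39.1), with means of 48.5 CPM (SD 64.2) and 5.91 CPM (SD 21.1). In early HPC the share was 53.4% at E8.25 (41.4 to 65.2) and 56.2% at E8.5 (45.3 to 66.7). In later HPC it was 26.1% at E9.5 (14.3 to 41.1) and 12.6% at E10.5 (6.48 to 21.5), both with intervals below the early ones. *Flk1*-GFP+ cells held it in 69.4% at E7.25 and 48.6% at E7.75.

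No count of *Gata3* was found in 66 E8.5 EryP, 37 E8.5 Mk or 73 E10.5 Mk cells, which allows shares of up to 4.55%, 8.11% and 4.11% by the limit of 3 cells, where the exact intervals end at 5.44%, 9.49% and 4.93%. The mean in E8.5 HPC was at least 642-fold that in E8.5 EryP and at least 696-fold that in E8.5 Mk. A single Mac cell held *Gata3*, at 64.0 CPM, and the same cell held *Gata2* at 160 CPM, the highest of the 4 Mac cells with *Gata2*. In the order of *Gata3* shares, neighbours failed to overlap at 2 of 12 steps, from E8.5 Endo to E7.25 mesoderm and from E7.75 mesoderm to E10.5 Endo.

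*Gata4* was found in mesoderm and in scattered cells elsewhere. It was detected in 81.6% of cells at E7.25 (74.4 to 87.5) and 40.7% at E7.75 (32.5 to 49.3), with means of 37.5 CPM (SD 44.7) and 14.8 CPM (SD 40.2). Later it was in 4 of 73 E8.25 HPC, 6 of 79 E8.5 Endo and 2 of 61 E10.5 Endo cells. The highest E8.25 HPC cell held 90.8 CPM, and the E10.5 Endo cells 216 and 35.8 CPM. In each of the other populations at most 1 cell held it, at no more than 3.14 CPM. The intervals of E7.25 and E7.75 did not overlap each other or that of the next population, E8.5 Endo.

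*Gata6* (ENSMUSG00000005836, chromosome 18, 11052064 to 11085635, plus strand, with 93 exonic bases shared with the antisense *1010001N08Rik*) was present in mesoderm and endothelium. It was in 95.9% of E7.25 cells (91.3 to 98.5) and 86.4% of E7.75 cells (79.6 to 91.6), and in 73.4% (62.3 to 82.7) and 75.4% (62.7 to 85.5) of Endo cells at E8.5 and E10.5. Mean levels were 74.1 and 107.97 CPM in mesoderm and 35.0 and 105.97 CPM in Endo. In HPC the shares were 23.3%, 14.6%, 2.17% and 3.45% from E8.25 to E10.5. Neighbours failed to overlap only between E8.5 Endo and E8.25 HPC. The E10.5 HPC mean of 2.85 CPM rested on 1 cell with 218 CPM among 3 that held the gene. No EryP, Mac or E8.5 Mk cell held *Gata6*, and 1 E10.5 Mk cell held 4 counts.

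*Gata4* and *Gata6* are also genes of visceral endoderm, the outer layer of the yolk sac, and *Gata3* is also a gene of trophoblast. The 7 endoderm markers (*Afp*, *Apoa1*, *Ttr*, *Amn*, *Cubn*, *Sox17*, *Foxa2*, of which 3 passed the authors' gene filter) averaged 2.43% of E7.25 and 2.76% of E7.75 mesoderm cells. Their summed level had a median of 0 in cells with and without *Gata4* at both stages, and the highest cell held 41.0 CPM over its own total. No *Flk1*-GFP+ cell held 3 or more of them, or 3 or more of the 5 trophoblast markers (*Elf5*, *Cdx2*, *Tfap2c*, *Krt7*, *Prl3d1*). *Elf5*, *Krt7* and *Prl3d1* were in no *Flk1*-GFP+ cell, so that 3 trophoblast markers could not be reached. *Cdx2* was in 6.12% of E7.25 and 25% of E7.75 cells, and *Tfap2c* in 4.76% and 1.43%. In Endo the 7 markers averaged 16.5% at E8.5 and 14.3% at E10.5. *Sox17*, which endothelial cells also express, was in 74.7% and 83.6% of these cells. Of the other 6, *Ttr* was the most frequent at either stage, at 15.2% of E8.5 Endo and 11.48% of E10.5 Endo cells.

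**Figure D3:**
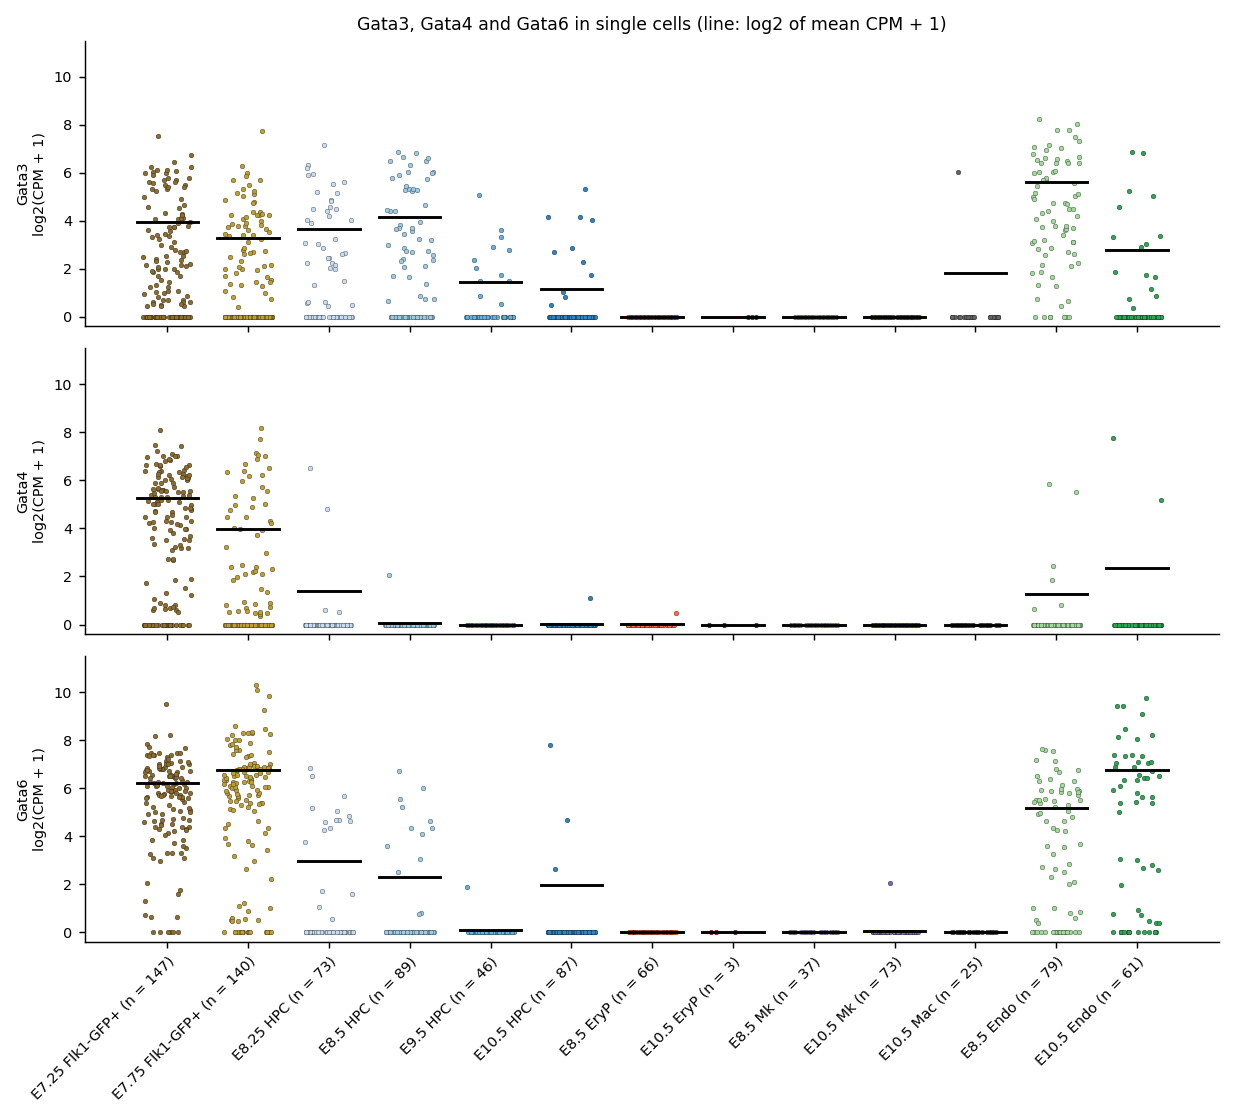
*Gata3*, *Gata4* and *Gata6* in each cell, as log2(CPM + 1) on the y axis, by population on the x axis; each point is a cell and the line is log2 of mean CPM + 1. EryP and Mk cells lay at 0 for all 3 genes apart from 1 E8.5 EryP cell with *Gata4* and 1 E10.5 Mk cell with *Gata6*.

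Levels of different genes were compared per kilobase of merged exon. On this scale *Gata1* had the highest mean of the 6 genes in E7.75 mesoderm (54.1 CPM per kb), in HPC at all 4 stages, and in EryP and Mk, where it reached 233 CPM per kb in E10.5 EryP. In E9.5 HPC it stood at 15.6 and *Gata2* at 12.0, with *Gata1* found in 10 of 46 cells. Without the length scaling *Gata2* had the higher mean in E9.5 HPC (64.8 against 38.0 CPM) and E10.5 HPC (153.9 against 120.2 CPM). In E8.25 and E8.5 HPC *Gata1* was higher on either scale. Over both lanes, *Gata2* was highest at E7.25 with 15.7 CPM per kb, ahead of *Gata1* with 13.6 and *Gata6* with 11.4, but the lanes differed in this order. In lane 6 *Gata2* stood at 18.4 and *Gata1* at 13.1, and in lane 7 *Gata1* stood at 14.0 and *Gata2* at 13.0. *Gata2* was also highest in E8.5 Endo with 13.8, ahead of *Gata3* with 12.2, and in Mac with 1.20. In E10.5 Endo *Gata6* was highest with 16.3 CPM per kb, ahead of *Gata2* with 11.6. *Zfpm1* stood at 6.88 CPM per kb in E10.5 Mk, where *Gata1* stood at 187.

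Changes between populations were taken as log2 of the ratio of mean CPM + 1, and genes past 2-fold either way were counted among those with a mean of at least 1 CPM in either group. From E7.25 to E7.75, 2 of 6 members were past 2-fold, against 13.5% of all 13967 genes compared. The log2 ratio of *Gata1* was 1.96 and that of *Gata4* -1.29, and the other 4 lay between -0.66 for *Gata3* and 0.54 for *Gata6*. The E7.75 lanes differed for *Gata4*, with a mean of 3.71 CPM in lane 7 and 21.6 CPM in lane 8, where median totals were 2759528 and 1620915 counts. The log2 ratio of *Gata4* was -3.03 with lane 7 alone and -0.77, within 2-fold, with lane 8 alone. *Gata1* was past 2-fold with either lane, at 2.49 and 1.51.

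Between E8.25 and E8.5 HPC, which shared a gate and a flow cell, 1 of 6 members was past 2-fold, against 12.2% of genes. This was *Gata4*, at -1.34, found in 4 cells at E8.25 and 1 at E8.5. *Gata1* (-0.04), *Gata2* (-0.34) and *Zfpm1* (-0.35) lay within 2-fold. The median of *Gata1* was further apart than its mean, at 30.6 and 132.2 CPM, a log2 ratio of 2.08, with intervals that overlapped. From E8.5 to E9.5, across the change of gate and flow cell, 3 of 5 members were past it, against 28.5% of genes, and all 3 were lower. The log2 ratios were -2.72 for *Gata3*, -2.35 for *Gata1* and -2.22 for *Gata6*, and *Gata2* was at 0.31. All 9 erythroid targets of GATA1 that were compared were more than 2-fold lower over this step (median -5.28, all genes -0.05).

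Between E9.5 and E10.5 HPC, which also shared a gate and a flow cell, 3 of 5 members were past 2-fold, against 19.4% of genes, and all were higher. *Gata1* was at 1.64, *Gata2* at 1.24 and *Gata6*, carried by 1 cell, at 1.86, while *Zfpm1* was at -0.35. Of 8 erythroid targets compared, 6 were more than 2-fold higher, and none was more than 2-fold lower.

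No member was past 2-fold between E8.5 and E10.5 Mk, where 32.6% of all genes were. *Gata1* was at 0.22, *Gata2* at 0.57 and *Zfpm1* at 0.98. The target genes differed more, since all 10 erythroid targets were more than 2-fold lower at E10.5 (median -5.02) and 7 of 8 megakaryocyte targets higher (median 3.13), beside a median of -0.03 over all genes. In Endo from E8.5 to E10.5, 3 of 5 members were past 2-fold, against 40.1% of genes. *Gata3* was at -2.84, *Gata6* at 1.57 and *Gata4*, carried by 2 E10.5 cells, from 1.39 CPM to 4.13 CPM, while *Gata2* was at -0.24.

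At E8.5, HPC and Endo were more than 2-fold apart in 5 of 6 members, where 31.6% of genes were. *Gata1* and *Zfpm1* (1.62) were higher in HPC, and *Gata6* (-2.86), *Gata3* (-1.46) and *Gata4* (-1.21) were lower, while *Gata2* was within 2-fold (-0.51). Against E8.5 EryP, all 5 members compared were past 2-fold, beside 32.3% of genes. *Gata2* (4.71) was higher in HPC, as were *Gata3* and *Gata6* (at least 148.7-fold), which had no count in EryP. *Gata1* (-1.33) and *Zfpm1* (-1.04) were lower in HPC, and *Zfpm1* was at -0.84, within 2-fold, where CPM was taken over each cell's own total. Against E8.5 Mk, 2 of 5 members were past 2-fold, beside 24.0% of genes. These were *Gata3* and *Gata6* (at least 161-fold higher in HPC), with no count in Mk, while *Gata1* was at -0.98, *Gata2* at 0.79 and *Zfpm1* at -0.68. All 10 erythroid targets were more than 2-fold lower in HPC (median -2.84, all genes -0.003).

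At E10.5, HPC and Endo were more than 2-fold apart in 5 of 6 members, beside 51.2% of genes. *Gata1*, with 2 counts in Endo, and *Gata2* (1.28) were higher in HPC, and *Gata6* (-4.80), *Gata4* (-2.34, from 2 Endo cells and 1 HPC cell) and *Gata3* (-1.62) were lower. Against E10.5 Mk, all 5 members compared were past 2-fold, beside 30.5% of genes. *Zfpm1* (-2.43) and *Gata1* (-1.92) were lower in HPC and *Gata2* (1.77) was higher, as were *Gata6* and *Gata3*, which rested on 3 and 11 HPC cells. Against Mac, 4 of 5 members were past 2-fold, all higher in HPC, beside 48.4% of genes. *Gata2* was at 4.38 and *Zfpm1* at 1.92, *Gata1* had 2 counts over the Mac cells, and *Gata6* had none.

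The balance of *Gata2* to *Gata1* within a cell was taken as log2 of the ratio of *Gata2* CPM per kilobase + 1 to *Gata1* CPM per kilobase + 1. It is positive where *Gata2* leads and 0 in a cell with neither. In Endo the median was 3.57 at E8.5 (interval 2.89 to 3.84) and 1.47 at E10.5 (0.29 to 2.83), and *Gata1* led by 2-fold in no cell. In EryP and Mk it lay far below 0, at -7.62 in E8.5 EryP (-7.83 to -7.27), -5.71 in E8.5 Mk (-6.90 to -5.07) and -5.31 in E10.5 Mk (-6.32 to -4.24). The 3 E10.5 EryP cells lay between -8.38 and -6.51. *Gata1* led by 2-fold or more in all 66 E8.5 EryP, 35 of 37 E8.5 Mk and 71 of 73 E10.5 Mk cells. A single E10.5 Mk cell held *Gata2* without *Gata1*, at a balance of 6.07.

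Mesoderm and HPC lay between these and held cells of both kinds. The median was 1.23 at E7.25 (0.53 to 1.67) and 0 at E7.75 (-0.25 to 0). By lane, at E7.25 it was 1.51 in lane 6 (0.93 to 2.54) and 0.54 in lane 7 (0.08 to 1.45), with overlapping intervals. The lane medians of E7.75 cells were -0.12 in lane 7 and 0 in lane 8. *Gata2* led by 2-fold or more in 54.4% of the E7.25 and 20.0% of the E7.75 cells, and *Gata1* in 8.84% and 27.9%. The remaining 36.7% and 52.1% lay within 2-fold. Of these 54 cells at E7.25, 16 held both genes and 25 held neither. Of the 73 at E7.75, 24 held both and 23 neither, and at both stages the rest held a single gene. A place within 2-fold therefore did not mean that both genes were present.

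In early HPC few cells were near balance. At E8.25, *Gata2* led by 2-fold or more in 28 cells, *Gata1* in 36, and 9 lay within 2-fold, around a median of -0.03 (-3.03 to 1.24). At E8.5 these numbers were 33, 49 and 7, around a median of -2.49 (-3.15 to 0.09). The medians of these populations therefore fell in a sparsely filled stretch, and their intervals were wide. At E9.5, *Gata2* led in 28 of 46 cells and *Gata1* in 5, with a median of 2.17 (0.29 to 3.08). At E10.5, 35 cells were led by *Gata2*, 22 by *Gata1* and 30 lay within 2-fold, with a median of 0.23 (0 to 1.26). Of these 30 cells, 18 held both genes and 7 held neither.

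**Figure D4:**
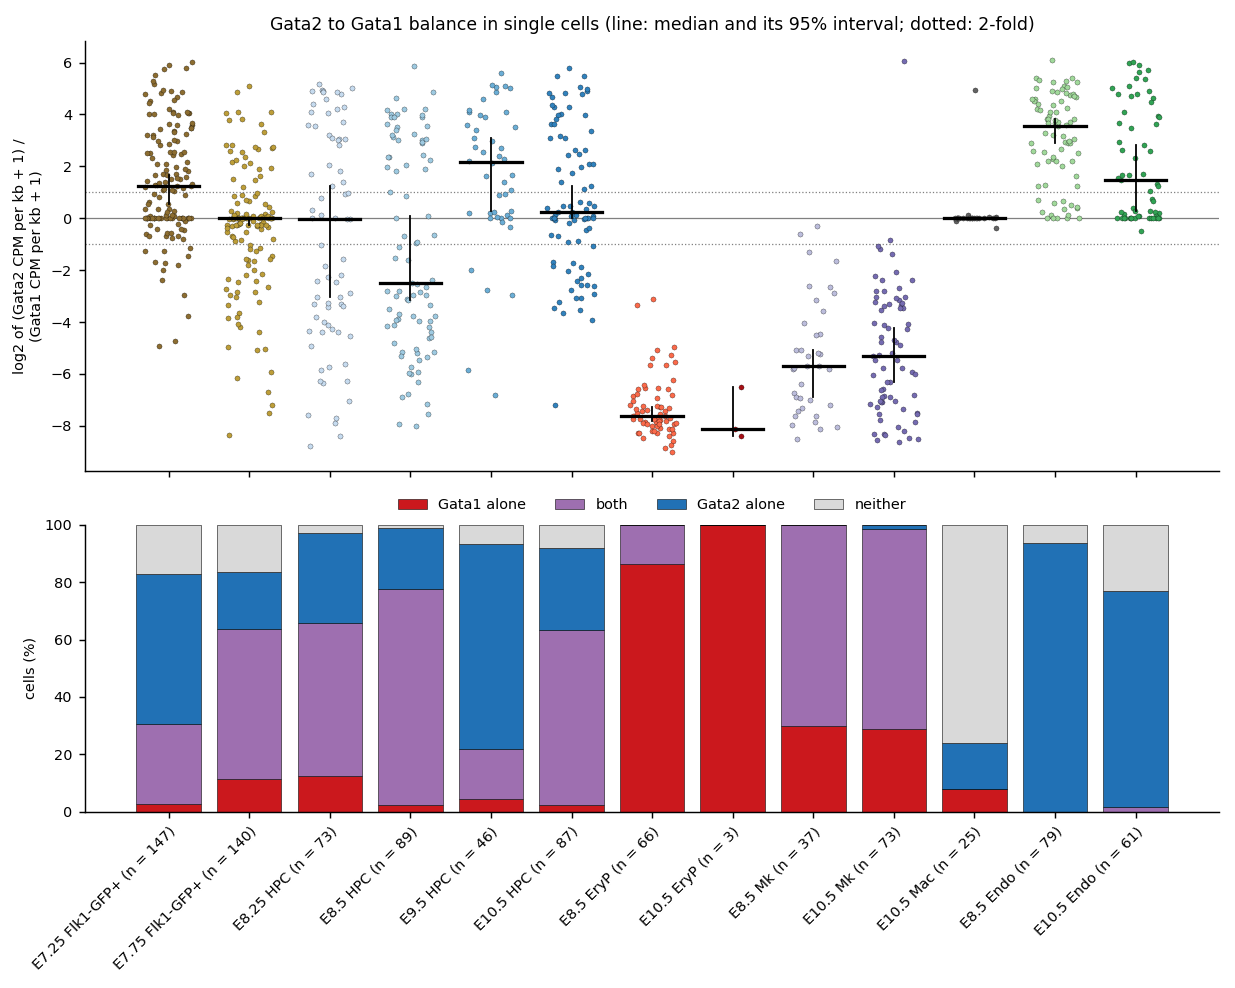
Upper panel, log2 balance of *Gata2* to *Gata1* per kilobase in each cell (y axis) by population (x axis), with the median and its 95% interval (for the 3 E10.5 EryP cells, the range) and dotted lines at 2-fold. Lower panel, percent of cells with *Gata1* alone, both genes, *Gata2* alone or neither; 75.3% of E8.5 HPC held both and 71.7% of E9.5 HPC held *Gata2* alone.

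Both genes were often found in the same cell. In mesoderm the share was 27.9% at E7.25 (20.8 to 35.9) and 52.1% at E7.75 (43.5 to 60.7). In HPC it was 53.4% of E8.25 HPC (41.4 to 65.2), 75.3% of E8.5 HPC (65.0 to 83.8), 17.4% of E9.5 HPC (7.82 to 31.4) and 60.9% of E10.5 HPC (49.9 to 71.2). Both were in 70.3% of E8.5 Mk and 69.9% of E10.5 Mk cells, and in 13.6% of E8.5 EryP. With 10 counts or more required of each gene the shares were 21.1% at E7.25, 34.3% at E7.75, 41.1%, 50.6%, 8.70% and 44.8% in HPC from E8.25 to E10.5, and 56.8% and 47.9% in E8.5 and E10.5 Mk. E9.5 HPC were the lowest of the HPC stages by either count, at a median depth of 3082738, the highest of the 4.

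A well with more than 1 cell could hold both genes. Without the cells that held transcripts of both sexes, the shares were 28.1% at E7.25 and 54.5% at E7.75. In HPC they were 48.9%, 77.6%, 18.2% and 61.8% from E8.25 to E10.5. In E8.5 and E10.5 Mk they were 57.1% and 67.7%, against 70.3% and 69.9% of all cells. Of the 16 E8.5 Mk cells with transcripts of both sexes, 14 held both genes. Pairs of cells of the same sex would not be found in this way. Whether a well with transcripts of both sexes held more than 1 cell was not tested either, and 59 of the 79 E8.5 Endo cells met this rule. These shares therefore do not settle how many wells held more than 1 cell.

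Cells with *Gata1* but no *Gata2* were few in mesoderm and HPC. They made up 2.72% at E7.25, 11.4% at E7.75 and 12.3%, 2.25%, 4.35% and 2.30% of HPC from E8.25 to E10.5. At E10.5, 53 of the 55 HPC with *Gata1* also held *Gata2*, 96.4%, against 78.1% of the cells without *Gata1*. In E8.5 EryP the cells with *Gata1* alone made up 86.4% (75.7 to 93.6).

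Rank correlations of the 2 genes across cells differed in sign between populations. Spearman's rho was 0.48 over the E7.25 cells, 0.58 over 140 E7.75 cells and 0.48 over 87 E10.5 HPC, and -0.18 over 73 E8.25 HPC and -0.21 over 89 E8.5 HPC. The latter pair of values is weak, and in each population the cells share a sort and the genes share each cell's depth.

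The observed share of cells with 2 members was set beside the product of their separate shares for all 15 pairs. The widest gap was in E8.25 HPC, where *Gata1* and *Gata3* were found together in 24.7% of cells and the product was 35.1%. In the same cells *Gata1* and *Gata6* met in 6.85%, with a product of 15.3%, and *Gata3* and *Gata6* in 20.5%, with a product of 12.4%. Of the 17 cells with *Gata6*, 15 held *Gata3*. *Gata6* was thus found in 10.4% of E8.25 HPC with *Gata1* and 48.0% of those without it.

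E8.25 and E8.5 HPC with and without *Gata3* were set side by side for the marker lists, with no test of the differences. The 5 endothelial markers averaged 98.97% of E8.25 HPC with *Gata3* and 81.2% of those without, and the erythroid targets 48.7% and 57.9%. At E8.5 the endothelial averages were 94.4% and 83.6%, and the erythroid ones 51.8% and 58.7%. Macrophage markers averaged 6.41% and 1.47% at E8.25 and 17% and 6.41% at E8.5, and megakaryocyte markers 39.0% and 34.1%, and 45.6% and 52.8%. This division was chosen after the values were seen.

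*Zfpm1* was found more often in cells with *Gata1* than in cells without it in both mesoderm populations and at all 4 HPC stages. The E8.5 HPC shares were the nearest, at 78.3% and 70.0%. At E7.75 it was in 77.2% of cells with *Gata2* and 35.9% of those without, and in 75.3% of cells with *Gata1* and 49.0% of those without. In E10.5 HPC it was in 70.9% of cells with *Gata1* and 40.6% of those without. The same shares were 75.0% and 52.0% in E8.25 HPC and 73.3% and 52.9% at E7.25. For *Gata2* in E8.25 HPC the order was the other way, at 66.1% with it and 72.7% without.

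Other genes were compared between cells with both *Gata1* and *Gata2* and cells with *Gata2* alone, in each mesoderm or HPC population with at least 10 cells of each class. The median total counts were 1837544 and 1822388 for the 41 and 77 cells at E7.25, and 1549754 and 1581573 for the 67 and 19 cells of E8.5 HPC. Transcripts of both sexes were in 9 of the 41 and 20 of the 77 cells at E7.25, in 6 of 73 and 5 of 28 at E7.75, in 16 of 39 and 6 of 23 E8.25 HPC, and in 29 of 67 and 9 of 19 E8.5 HPC. At E9.5, 8 cells held both genes and no comparison was made. The lists hold genes known as targets or partners of GATA factors, and the classes differ in *Gata1* by construction.

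At E7.25, 5.88% of genes were more than 2-fold higher in the cells with both, and 5 of the 6 erythroid targets compared were (median 1.75, all genes 0.03). The log2 ratio was 5.73 for *Hbb-bh1*, an embryonic beta-like globin, from 0.0319 CPM in cells with *Gata2* alone to 53.8 CPM in cells with both. *Hbb-y*, another embryonic globin, was at 2.98, *Alas2*, the first enzyme of erythroid haem synthesis, at 2.28, and *Epor*, the erythropoietin receptor, at 1.22. The globin ratios rested on few cells, since *Hbb-bh1* was detected in 9.52% and *Hbb-y* in 4.08% of all E7.25 cells. The median of *Hbb-bh1* was 0 CPM even in the 33 cells with 10 counts or more of *Gata1*. Of the partner factors, 7 of 9 were higher (median 1.74). *Gfi1b*, a transcriptional repressor required in erythroid and megakaryocyte cells, was at 4.25, *Runx1*, a factor needed for definitive blood cells, at 2.07, *Lmo2* at 1.74 and *Tal1*, which acts with *Lmo2* in a complex with GATA factors, at 1.57. Of the progenitor genes, 5 of 8 were higher. *Zfpm1* stood at -0.02.

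At E7.75, 11.0% of genes were more than 2-fold higher, and all 8 erythroid targets compared were (median 3.83, all genes 0.08). *Hbb-bh1* was at 8.16, from 2.34 CPM to 954 CPM, and *Klf1*, an erythroid activator, at 4.60. All 3 megakaryocyte targets compared were higher, among them *Nfe2*, a factor of platelet formation, at 4.53 and *Itga2b*, which encodes CD41, at 3.86. *Gfi1b* was at 5.30 and *Zfpm1* at 1.35. Mesoderm genes lay on the other side of 0, with medians of -0.57 at E7.25, where 2 of 8 were more than 2-fold lower beside 7.56% of genes, and -0.62 at E7.75, where 1 of 8 was, beside 7.99%.

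At E7.75, cells with few counts of *Gata1* were nearer to cells with none than to the rest in these genes. *Klf1* was found in 5.88% of the 51 cells without *Gata1*, 16.2% of the 37 cells with 1 to 9 counts and 78.8% of the 52 cells with 10 or more. The erythroid targets averaged 21.8%, 23.8% and 53.8% of the 3 classes in that order. *Zfpm1* was found in 49.0%, 45.9% and 96.2%. The median total was 2273284 in the class with 1 to 9 counts and 2005426 in the class with 10 or more. These count classes were chosen after the values were seen.

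In E8.25 HPC, 8 of 9 erythroid targets were more than 2-fold higher in cells with both genes (median 4.15, all genes 0.06), where 14.4% of all genes were. In E8.5 HPC it was 8 of 9 (median 4.08, all genes 0.09) beside 13.9%. *Hbb-bh1* stood at 8.27 and 6.66, and *Klf1* at 4.15 and 3.39. Megakaryocyte targets were higher in 4 of 7 at E8.25 and 7 of 8 at E8.5, where *Gp1ba*, a chain of the von Willebrand factor receptor, was at 4.40 and *Pf4*, platelet factor 4, at 2.11. No progenitor gene of 8 was more than 2-fold higher at either stage, with medians of -0.27 and 0.04. *Zfpm1* was at 0.82 and 0.88.

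In E10.5 HPC the ratios of erythroid targets were smaller. More than 2-fold higher were 5 of 8 erythroid targets (median 1.44, all genes 0.02), 4 of 8 megakaryocyte targets (median 1.00) and *Zfpm1* (1.05), beside 8.33% of all genes. *Epor* was at 2.66, *Klf1* at 1.83 and *Gfi1b* at 1.52, while *Hbb-y* was at -1.29 and *Alas2* at -0.14. *Hbb-bh1* (2.70) was at low levels, with a mean of 6.47 CPM in cells with both genes, against 3818 CPM in the like cells at E8.5. The 53 cells with both and the 25 with *Gata2* alone had median total counts of 1563125 and 1661048, and 11 and 7 of them held transcripts of both sexes.

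**Figure D5:**
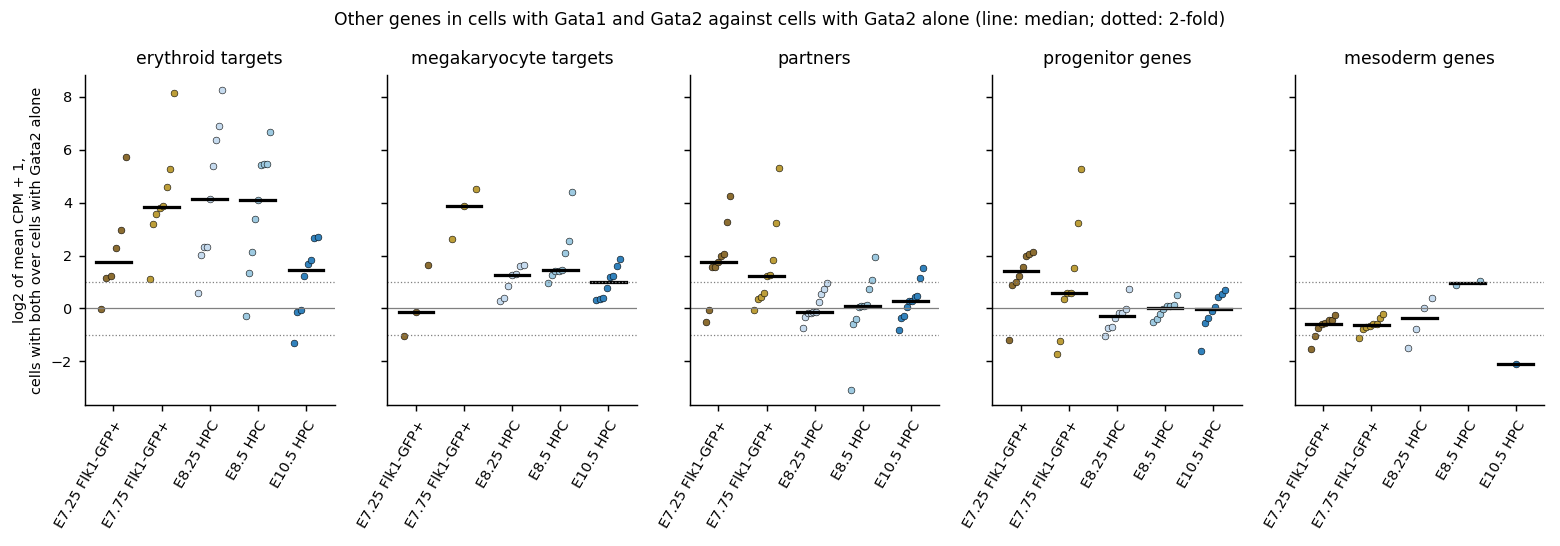
Log2 ratio of mean CPM + 1 in cells with both *Gata1* and *Gata2* over cells with *Gata2* alone (y axis), by population (x axis) and gene list (panels); each point is a gene, the solid line the median and the dotted lines 2-fold. Medians of erythroid targets stood between 1.44 and 4.15, and those of progenitor genes in HPC between -0.27 and 0.04.

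HPC with *Gata2* alone also differed from those with both in *Gata3* and *Gata6*. *Gata3* was in 82.6% of the 23 E8.25 cells with *Gata2* alone (61.2 to 95.0) and in 41.0% of the 39 with both (25.6 to 57.9). *Gata6* was in 52.2% (30.6 to 73.2) and 12.8% (4.30 to 27.4). Neither pair of intervals overlapped. At E8.5 *Gata6* was in 36.8% (16.3 to 61.6) and 8.96% (3.36 to 18.5), with intervals that overlapped. In E10.5 HPC, macrophage markers averaged 83.3% of the 9 cells without *Gata2* and 44.9% of the 78 cells with it, and HPC markers 70.4% and 98.3%.

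The 5 genes most like each member were those with the highest Pearson correlation of log2(mean CPM + 1) over the 13 populations, among 12324 genes with a mean of 10 CPM in at least 1 population. For *Gata1* they were *Noc4l* (0.95), *Bag2*, *Rpl36a*, *Smim1* and *Hdgf* (0.92). *Gata2* was nearest to *Peg12* (0.96), *Pitpnb*, *Dock5*, *Aktip* and *Lhpp* (0.92). Those of *Gata3* included *Cgnl1*, *Fbn2*, *Gm42899* and *Col23a1* (0.92). *Gata4* was nearest to *Pdgfra* (0.98), *Cyp26a1*, *Vash2*, *Elovl4* and *Pcdh18* (0.97). *Gata6* was nearest to *Meg3* (0.98), *Fblim1*, *Tmem88*, *Foxf1* and *Neo1* (0.98), and *Zfpm1* to *Nelfcd* (0.95), *Mrps11*, *Ccnb2*, *Mrps17* and *Capn5* (0.89).

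Between members, the correlation over the 13 populations was highest for *Gata4* and *Gata6* (0.86), then for *Gata1* and *Zfpm1* (0.77) and for *Gata3* and *Gata6* (0.75). It was lowest for *Gata1* and *Gata3* (-0.53), and -0.25 for *Gata1* and *Gata2*. These populations share sequencing runs and lineages, and the values describe 13 points.

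Most mesoderm cells held several members at once. At E7.25, 13 cells held all 6 and the median was 4, as at E7.75, where 8 of 140 held all. HPC held a median of 3 at E8.25, E8.5 and E10.5 and of 2 at E9.5. EryP held a median of 2, Mk 3, E8.5 Endo 3 and E10.5 Endo 2, and 17 of 25 Mac cells held none.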

How the data were processed

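Single cells were sorted from dissociated yolk sac (trypsin at the E7 stages, collagenase/dispase later) and captured on the Fluidigm C1, with an aperture for cells of intermediate size, and Nextera XT libraries were sequenced from both ends. The authors aligned reads with Rsubread to the mouse genome of Ensembl release 84 (GRCm38), and featureCounts gave counts per gene, without molecular identifiers. Deposited values were whole-number counts for 1073 cells and, after the authors' filter with scater, for 926 cells and 15967 genes, and a CPM signal for the same cells, which the authors scaled by scran size factors, so that CPM sums per cell ran from 699615 to 4176737.

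Detection used the counts and levels used the deposited CPM. Cells were grouped by population from the labels, and no test was made. Shares have exact 95% intervals, a group at 0 was given a floor of 3 counts, and log2 ratios were taken on mean CPM with a pseudocount of 1, among genes with a mean of at least 1 CPM in either group. Thinning took each cell to 840000 counts and left out 46 shallower cells. Cells with at least 5 counts of *Xist* and at least 5 of 4 Y-linked genes together were taken as holding transcripts of both sexes, and no other step against doublets was made. The members and lists were chosen with earlier results of these data known. Genes named were the 6 members, 41 genes of fixed lists and, for each member, the 5 genes of highest Pearson correlation over the 13 populations. Some genes that these rules name are not reported here. Divisions of cells by a member and the classes by *Gata1* count were chosen after values were seen. Alternatives were thinned counts, a threshold of 10 counts, each cell's own total, pseudocounts of 0.1 and 10, medians, no filter on low values, single lanes and leaving out cells with transcripts of both sexes. On simulated data for E8.5 Endo over E8.5 HPC (13045 genes), 200 of 200 set changes were estimated within 0.25 on the log2 scale and 0 of 12845 unchanged genes were past 2-fold. The simulated counts had Poisson counting error alone, without the wider spread between real cells. They therefore check the calculation and not how often real genes pass 2-fold without a change. Exon overlaps came from GENCODE M21. Calculations ran in Python (3.11.15) on scipy (1.17.1), pandas (2.3.3) and numpy (2.4.6), with plots by matplotlib (3.10.9).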

Additional observations from a re-analysis of the deposited data

Results flagged for a closer look

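The change from E8.5 to E10.5 went in opposite directions between lineages, with a difference of at least 2-fold, for 3 genes, and none of these differences was tested. *Gata2* had a log2 ratio of 1.55 in HPC and -0.24 in Endo, a difference of 1.79. *Gata6* was at -0.36 in HPC and 1.57 in Endo, a difference of -1.93, and in HPC it rested on 13 cells at E8.5 and 3 at E10.5. *Zfpm1* was at -0.77 in HPC, against 0.98 in Mk (a difference of -1.75) and 0.86 in Endo (a difference of -1.63). Its Endo share was 20.3% at E8.5 and 19.7% at E10.5, both medians were 0, and the highest cells held 85.7 and 160 CPM. *Gata1*, at -0.72 in HPC and 0.22 in Mk, also differed in direction, by less than 2-fold. The HPC and Mk gates also changed over this step, and the Endo gate was also CD45- at E10.5. The flow cell changed as well, and stage cannot be told apart from gate or flow cell.

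A signal was also present in cells that the authors' filter removed. Of the 22 E10.5 EryP cells left out, 7 held *Gata1*, 31.8% (13.9 to 54.9), with 1873 counts in all, and 9 held *Zfpm1*, 40.9% (20.7 to 63.6). The other 4 members had no count. Total counts of these cells ran from 27656 to 3606368.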

How the results depend on the processing

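No log2 ratio past 2-fold changed sign under any alternative run. Log2 ratios within 2-fold did so in 8 cases, 6 of them with medians over cells. *Zfpm1* in E10.5 HPC over Endo is among these cases both with medians and with each cell's own total. A ratio that fell to 0 was not counted as a change of sign. With medians, *Gata1* in E8.5 over E8.25 HPC went from -0.04 to 2.08 and *Zfpm1* in E10.5 HPC over Endo from -0.01 to 1.05. The share of cells with both *Gata1* and *Gata2* at 10 counts or more of each was 34.3% at E7.75, 41.1%, 50.6% and 44.8% in E8.25, E8.5 and E10.5 HPC, 6.06% in E8.5 EryP, 47.9% in E10.5 Mk and 0 in E10.5 Endo. It was 43.4% at E7.75 with thinned counts, and 0 in E10.5 Endo without cells holding transcripts of both sexes. With no length scaling the median balance was 2.97 at E7.25, 4.32 and 1.28 in E9.5 and E10.5 HPC, -8.82 and -9.41 in E8.5 and E10.5 EryP, -4.96 in E8.5 Mk, and 5.90 and 3.41 in E8.5 and E10.5 Endo. With a pseudocount of 0.1 it was 3.30 at E7.25, 4.80 in E9.5 HPC, -10.85 and -11.44 in EryP and 6.78 and 4.23 in Endo. With a pseudocount of 10 it was 0.20 at E7.25, -4.40 and -4.85 in EryP, -3.79 and -3.62 in Mk and 1.06 and 0.24 in Endo. By lane, an alternative chosen after the data were seen, the E7.25 median was 1.51 and 0.54, and that of E7.75 was -0.12 and 0. Over cells with either gene it was 1.67 at E7.25 and 0.060 in Mac. These shifts came with changes of threshold, depth, scaling, added constant or set of cells, and what set their size was not tested. Of 62 log2 ratios of members, 61 kept to their value within the limits used when CPM was taken over each cell's own total, 45 with a pseudocount of 0.1, 35 with 10 and 16 with medians over cells. The 12 percentages of genes past 2-fold moved by less than 1.5 times without the filter on low values, and all 13 median balances kept to their value with thinned counts. Depth limited *Zfpm1* most, since 6 of its 13 shares moved with thinned counts. No paired analysis was possible because each population was a single sample and cell numbers do not link populations.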

Other observations

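*Zfpm2*, the gene of FOG2, a cofactor of GATA4 and GATA6, was most widely found in endothelium. It was in 53.2% of E8.5 Endo cells (mean 24.0 CPM) and 59.0% of E10.5 Endo cells (mean 103.6 CPM), in 24.7% and 27.0% of E8.25 and E8.5 HPC, and in 2.72% and 5.71% of E7.25 and E7.75 mesoderm cells.

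*Gata5*, another member of the GATA family, was found in 23 E7.25 cells (15.6%), all of which held *Gata4* and *Gata6*. At E7.75 it was in 31 cells (22.1%), of which 30 held *Gata6* and 16 held *Gata4*. Elsewhere it was in 1 E8.5 HPC cell. Both genes were looked at because of their families, after values of the 6 members were known.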
